A study of Mus musculus with 20 samples.

Results

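The regions described here are 831 tiles of the mouse genome, each 100 bp long, that were methylated in sperm and were still read as methylated in the paternal pronucleus of wild-type zygotes. They were taken from 61688 autosomal tiles with enough reads, of which 9181 were at 75% or more in both sperm libraries. Of those 9181 sperm-methylated tiles, the 831 were at 85% or more in both wild-type, mock-treated paternal libraries, and they are called retained tiles below for that reason alone. The other 8350 sperm-methylated tiles serve as the comparison. A tile level is the number of methylated CpG calls over all CpG calls, from positions with at least 5 reads, and a tile needed 2 such positions and 10 calls in each of the 10 sperm and paternal libraries.

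Sperm DNA enters the egg densely methylated, and much of that methylation is lost from the paternal pronucleus before the first cleavage. The dioxygenase Tet3, supplied by the oocyte, oxidises 5-methylcytosine, and replication without copying of the mark onto the new strand dilutes what is left. Some sequences are known to keep methylation through this stage, among them imprinted control regions and certain retrotransposons. The oxidised form 5-hydroxymethylcytosine is read as methylated after bisulfite conversion, so a retained call can be either base.

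The study asked how Tet3 and DNA replication share in the loss of methylation from both parental genomes. Methylation was read by reduced representation bisulfite sequencing, which reads MspI fragments and so favours CpG-rich DNA, in 10 groups of 2 libraries. CKO-Pat-Aphi and CKO-Pat were paternal pronuclei from eggs of Tet3 CKO females (Zp3-Cre, f/-), in which the Cre recombinase is driven in the growing oocyte, with 3 µg/ml aphidicolin or mock-treated. WT-Pat-Aphi and WT-Pat were the same from WT (f/f) females, and CKO-Mat-Aphi, CKO-Mat, WT-Mat-Aphi and WT-Mat were the matching maternal pronuclei. Sperm and Oocyte were the gametes. Aphidicolin inhibits the replicative DNA polymerases, and it was present from 5 hours after fertilisation. Females were 7 to 10 weeks old and superovulated, and all eggs were fertilised in vitro with C57BL/6J sperm, so the paternal genome was of the same strain in CKO and WT zygotes. Pronuclei were isolated at 12 hours, told apart by size and by distance from the polar body, and frozen at 13 hours. Libraries were typically made from about 20 pooled pronuclei with 21 PCR cycles. The labels do not say that the libraries of a group came from separate females.

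Libraries held between 22431861 and 68056783 CpG calls. At sperm-methylated tiles the replicates of the mock-treated paternal groups were far apart, with a median absolute difference between the pair of 17.7 percentage points in CKO-Pat and 26.4 points in WT-Pat, against 1.60 points in Sperm. Levels of exactly 0% or 100% were read at 69.1% and 73.3% of these tiles in CKO-Pat-Aphi, 10.98% and 14.9% in CKO-Pat, 70.1% and 70.7% in WT-Pat-Aphi, 41.9% and 15.1% in WT-Pat and 6.10% and 6.86% in Sperm. WT-Pat replicate 1 stood apart in its 1876 tiles at 0%, against 21 to 573 in the other paternal pronuclear libraries. Paternal libraries also differed at tiles methylated in the oocyte but not in sperm. At 2239 tiles that were at 75% or more in both Oocyte and at 25% or less in both Sperm libraries, the mean level was 10.7% and 5.11% in CKO-Pat-Aphi, 11.5% and 4.92% in CKO-Pat, 5.20% and 4.24% in WT-Pat-Aphi, 3.43% and 4.74% in WT-Pat and 3.06% and 2.95% in Sperm. Replicate 1 of both CKO groups stood above the rest, and the part of these values in the results below was not tested.

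By the rule, retained tiles averaged 98.5% and 95.9% in the WT-Pat libraries and 95.6% in each Sperm library. The other sperm-methylated tiles averaged 48.6% and 53.6% in WT-Pat and 95.8% in each Sperm library. Levels of exactly 100% were read at 77.9% and 48.1% of retained tiles in WT-Pat, against 7.58% and 9.27% in Sperm. Among the other tiles the shares at 100% were 15.9% and 4.97% in WT-Pat. The part of such levels in the choice of tiles was not tested. The WT-Pat and Sperm levels chose the tiles and are a description. The CKO-Pat libraries did not choose them.

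In paternal pronuclei from CKO eggs, the retained tiles were again the more methylated ones, but they did not stay at the sperm level. They averaged 80.7% and 82.7% in the CKO-Pat libraries, and the other sperm-methylated tiles averaged 64.1% and 67.2% in the same libraries. The difference between the classes was 16.6 points in replicate 1 and 15.5 points in replicate 2, and both class means of retained tiles lay above both of the other tiles. The median tile was at 86.5% and 90% among retained tiles, against 66.3% and 69.8% among the others. As group means, retained tiles stood at 81.7% ± 1.44 and the others at 65.6% ± 2.22 (SD, n = 2 libraries each). Members were chosen with earlier results known and tiles of a library are not replicates, so no p is given for these class means.

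Set against their own sperm level, retained tiles were 13.9 points lower in CKO-Pat, with the 4 differences between single libraries from -15.0 to -12.9 points. The other sperm-methylated tiles were 30.2 points lower, from -31.8 to -28.6 points. The name of the class therefore holds in part: in CKO-Pat the retained tiles lost less methylation than the others, and they lost some.

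**Figure D1:**
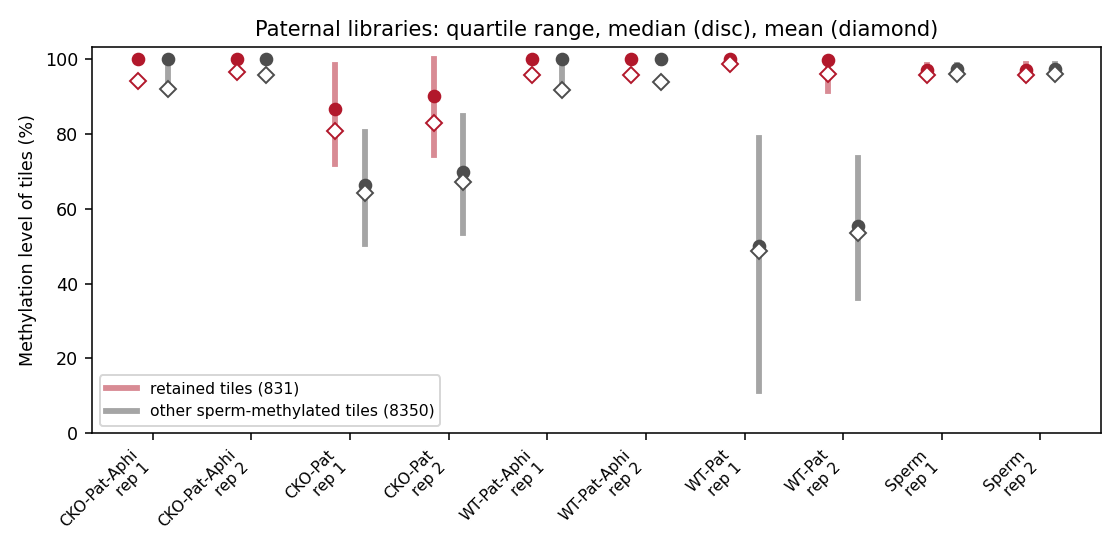
Methylation level (%) of the 831 retained tiles (red) and of the 8350 other sperm-methylated tiles (grey) in each CKO and WT paternal library, with and without aphidicolin, and in each Sperm library. Bars run from the lower to the upper quartile over tiles, discs are medians and open diamonds are means; the classes are apart in CKO-Pat, where the red diamonds stand at 80.7% and 82.7% and the grey ones at 64.1% and 67.2%, and apart by construction in WT-Pat.

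Single tiles were less steady than the class mean. In CKO-Pat, 309 of the 831 retained tiles (37.2%) were again at 85% or more in both libraries, against 605 of the 8350 other tiles (7.25%). The same held for 1.56% of all 61688 tiles and for 9.96% of all sperm-methylated tiles. The share rests on both WT-Pat libraries: with WT-Pat replicate 2 left out of the rule it was 17.4%, against 7.12% of the other tiles then, and with replicate 1 left out 27.1%, against 5.87%. A further 330 retained tiles reached 85% in 1 of the libraries alone and 192 in neither. At a limit of 75% in both libraries, 472 retained tiles (56.8%) remained, against 1480 others (17.7%). At the other end, 12 retained tiles (1.44%) were below 50% in both CKO-Pat libraries and 3 were at 25% or less in both, against 534 (6.40%) and 56 of the other tiles. Fully methylated calls in both libraries were found at 75 retained tiles (9.03%) and at 130 others (1.56%).

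**Figure D2:**
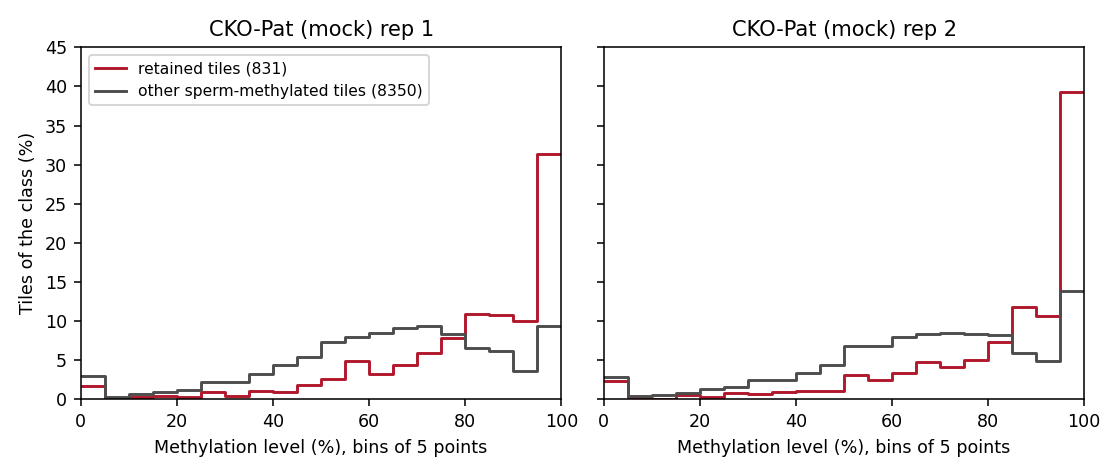
Share of tiles (%) in bins of 5 points of methylation level in CKO-Pat replicate 1 (left) and replicate 2 (right), for the 831 retained tiles (red) and the 8350 other sperm-methylated tiles (grey). The highest bin held 31.4% and 39.4% of retained tiles, against 9.35% and 13.9% of the others, and a lower tail of retained tiles reached down to 0% in both libraries.

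The number of retained tiles rested on both WT-Pat libraries. WT-Pat replicate 1 alone had 2572 sperm-methylated tiles at 85% or more. Of these, WT-Pat replicate 2 read 831 (32.3%) at 85% or more, with a mean of 67.2%, and it read 14.2% of the remaining tiles at 85% or more. WT-Pat replicate 2 alone had 1767 such tiles, of which replicate 1 read 47.0% at 85% or more, against 23.5% of the remainder. So a tile high in 1 WT-Pat library was more often high in the other, and more tiles were high in 1 library only than in both. Tiles chosen by WT-Pat replicate 1 alone averaged 70.3% and 73.3% in CKO-Pat, and those chosen by replicate 2 alone averaged 75.9% and 78.4%, both below the 80.7% and 82.7% of tiles high in both.

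The level in CKO-Pat was higher at tiles with a higher lower WT-Pat level, up to the bins inside the limit. Sperm-methylated tiles whose lower WT-Pat level was under 10% averaged 60.4% and 63.0% in the CKO-Pat libraries. Tiles between 50% and 60% averaged 66.1% and 69.8%, and tiles between 80% and 85%, just outside the limit, averaged 75.2% and 77.7%. Just inside it, tiles between 85% and 90% averaged 80.6% and 84.4%. The mean did not go on up: tiles between 95% and 100% averaged 79.8% and 81.6%. The share at 85% or more in both CKO-Pat libraries was 24.6% for tiles between 80% and 85%, 36.8% between 85% and 90%, 41.8% between 90% and 95%, and 35.9% at the top. The limit of 85% thus lay within a rise of the binned means. The WT-Pat replicates were far apart, which blurs the bins, so these means cannot tell a gradient from a separate class. The 556 sperm-methylated tiles at 25% or less in both WT-Pat libraries averaged 57.9% and 61.3% in CKO-Pat.

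**Figure D3:**
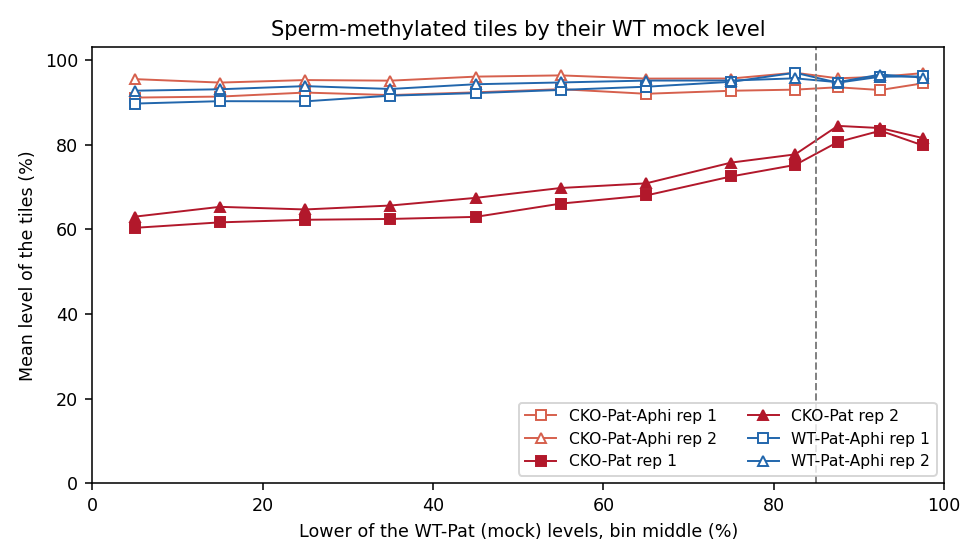
Mean methylation level (%) in each CKO-Pat-Aphi, CKO-Pat and WT-Pat-Aphi library of the 9181 sperm-methylated tiles, in bins of the lower of their WT-Pat levels (%), with the 85% limit of the rule dashed. CKO-Pat means run upward from 60.4% and 63.0% in the lowest bin to 80.6% and 84.4% just inside the limit, while the aphidicolin libraries stay near the top in every bin.

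With replication blocked, retained and other tiles were nearly alike, since both stayed close to the sperm level. Retained tiles averaged 94.0% and 96.5% in CKO-Pat-Aphi, and the others averaged 92.0% and 95.7%. In WT-Pat-Aphi retained tiles averaged 95.8% and 95.7%, and the others averaged 91.7% and 93.9%. The difference between classes was 1.99 and 0.806 points in CKO-Pat-Aphi and 4.03 and 1.86 points in WT-Pat-Aphi, and the classes did not overlap in WT-Pat-Aphi. At 85% or more in both libraries were 657 retained tiles (79.1%) in CKO-Pat-Aphi and 669 (80.5%) in WT-Pat-Aphi, against 74.4% and 70.4% of all sperm-methylated tiles and 11.3% and 10.7% of all tiles.

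The difference with aphidicolin was smaller at retained tiles than at the other sperm-methylated tiles. In CKO eggs, the treated group stood 13.5 points above the mock group at retained tiles, with the 4 differences between libraries from 11.3 to 15.8 points. At the other sperm-methylated tiles it stood 28.2 points above, from 24.8 to 31.6 points. Retained tiles had the higher mock level, and the part of the upper bound of 100% in this difference was not tested. Between CKO-Pat-Aphi and WT-Pat-Aphi the retained tiles differed by -0.522 points, with the library differences from -1.77 to 0.729 points on both sides of 0.

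Tile by tile, a quasi-binomial model over all 61688 tiles called none higher and none lower in CKO-Pat-Aphi than in CKO-Pat at a Benjamini-Hochberg adjusted p under 0.05 and a difference of 10 points (0% of all tiles in each direction). At an unadjusted p under 0.05 it found 2685 tiles higher (4.35%) and 134 lower (0.217%). Among retained tiles these were 49 higher (5.90%) and 1 lower, and among the other sperm-methylated tiles 2160 higher (25.9%) and 2 lower. The median difference was 9.15 points at retained tiles, 27.2 points at the others and 0 over all tiles. Both treated libraries lay above both mock ones at 354 retained tiles (42.6%) and at 5770 others (69.1%), against 13.3% of all tiles. The reverse order was found at 14 retained tiles (1.68%) and at 40 others (0.479%), against 5.32% of all tiles. A limma fit on transformed levels called 388 tiles higher and 45 lower, 50 and 1 of them retained. Limma calls, here and below, were not counted among the other sperm-methylated tiles, so nothing is read from the retained ones. With 2 libraries against 2, an exact permutation test of a single tile cannot go below a p of 0.33.

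Between CKO-Pat-Aphi and WT-Pat-Aphi the model called 0 tiles in either direction (0% of all tiles), with 376 higher (0.61%) and 239 lower (0.387%) at an unadjusted p under 0.05. Of these, 0 and 3 were retained tiles, and limma called 27 higher and 16 lower, 1 of each retained. The treated CKO libraries lay above both treated WT libraries at 45 retained tiles (5.42%), and below both at 38 (4.57%). The shares were 6.17% and 4.98% among the other sperm-methylated tiles, and 4.01% and 3.14% of all tiles. Between CKO-Pat and WT-Pat the model called 18 tiles higher (0.0292%) and 1 lower (0.00162%), with 0 retained tiles in either direction. At an unadjusted p under 0.05, 1.25% of all tiles were higher and 0.327% lower, with 0 and 41 retained tiles, and groups did not overlap at 10.3% of all tiles (higher) and 4.1% (lower), with 8 and 355 retained tiles. Retained tiles were chosen for high WT-Pat levels, so nothing is read from their counts in that comparison.

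Tile by tile, 210 retained tiles (25.3%) were at 85% or more in all 6 paternal pronuclear libraries that the rule did not use, against 380 of the others (4.55%). At least 2 of those 6 libraries were below 50% at 15 retained tiles (1.81%) and at 805 others (9.64%). The retained tiles thus hold a smaller set that was high in each paternal library read.

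Methylation in the oocyte divided the retained tiles. Of the 810 read in both Oocyte libraries, 329 (40.6%) were at 75% or more in both, 293 (36.2%) at 25% or less in both, and 188 lay between. Of the 8132 other tiles read there, 41.2% were at 75% or more, 44.1% at 25% or less and 14.7% between. The classes are given apart because reads of maternal DNA in a paternal library would be unmethylated at tiles low in the oocyte and methylated at tiles high in it.

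Retained tiles exceeded the others in both classes. At tiles low in the oocyte, retained ones averaged 74.5% and 78.6% in CKO-Pat, and the others averaged 59.7% and 66.5%. The difference was 14.8 points in replicate 1 and 12.02 points in replicate 2, and 73 of the 293 retained tiles (24.9%) were at 85% or more in both libraries, against 4.94% of the others. At tiles high in the oocyte, retained ones averaged 86.1% and 84.3%, and the others averaged 68.4% and 67.8%. There the differences were 17.7 and 16.4 points, and 157 of 329 retained tiles (47.7%) were at 85% or more in both libraries, against 8.50%. The 188 retained tiles between averaged 81.6% and 85.8%, and the 1195 other tiles between averaged 65.0% and 68.4%. Among retained tiles the oocyte-low class thus had the lowest mean in each CKO-Pat library.

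CKO-Pat replicate 1, which carried the most methylation at oocyte-specific tiles, was the lower library at oocyte-low retained tiles and the higher one at oocyte-high ones. In CKO-Pat-Aphi oocyte-low retained tiles were at 91.0% in replicate 1 and 96.7% in replicate 2. In WT-Pat-Aphi, where oocyte-specific tiles averaged 5.20% and 4.24%, they were at 95.5% and 95.0%.

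Maternal pronuclei gave a readout of the same tiles on the other parental genome, and those libraries did not enter the rule. At tiles methylated in both gametes, retained ones averaged 88.0% and 87.6% in CKO-Mat, and the others averaged 82.6% and 84.3%. In WT-Mat they averaged 86.2% and 89.4%, and the others averaged 82.0% and 85.4%. Retained tiles were higher in each of these 4 mock libraries, by 3.27 to 5.40 points, against replicate SDs of the class means between 0.288 and 2.42 points. At 85% or more in both libraries were 140 of 298 retained tiles (47.0%) in CKO-Mat, against 37.2% of the others, and 156 of 292 (53.4%) in WT-Mat, against 40.8%. With aphidicolin the classes lay closer, with differences between -1.42 and 0.706 points over the 4 maternal libraries. Tiles low in the oocyte were also low in maternal pronuclei whether retained or not. Retained ones averaged 12.4% and 12.4% in CKO-Mat and 4.70% and 5.00% in WT-Mat, against 4.58% and 3.81% in Oocyte. The others averaged 9.25% and 10.9% in CKO-Mat and 3.54% and 4.15% in WT-Mat, against 3.52% and 3.61% in Oocyte. CKO-Mat thus stood above Oocyte in both classes, and the cause was not tested.

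In depth and CpG number retained tiles were close to the other sperm-methylated tiles. The median depth was 151 calls per library for retained tiles and 165 for the others, and the median number of CpGs was 3 in both classes. Tiles with 5 or more CpGs made up 23.2% of retained tiles and 21.1% of the others, and both classes were CpG-poor beside all 61688 tiles, of which 67.6% had 5 or more. The share of sperm-methylated tiles that were retained was 10.1% at up to 2 CpGs, 7.93% at 3, 8.02% at 4, 9.56% at 5 to 6, and 10.9% at 7 or more. By chromosome it ran from 5.75% on chromosome 9 to 12.8% on chromosome 3.

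How well a retained tile held in CKO-Pat moved with depth and with CpG number. In 4 depth classes of equal size, from lowest to highest, 28.3%, 32.7%, 40.9% and 49.3% of retained tiles were at 85% or more in both CKO-Pat libraries. Among the other sperm-methylated tiles the shares were 9.07%, 7.62%, 5.64% and 6.72%. The mean level was higher at higher depth in both classes. From the lowest to the highest depth class, retained tiles averaged 75.6%, 79.7%, 84.5% and 84.6% in CKO-Pat replicate 1 and 76.4%, 83.5%, 85.04% and 87.6% in replicate 2. The other tiles averaged 60.8%, 63.2%, 64.9% and 67.3% in replicate 1 and 64.2%, 67.3%, 67.2% and 70.1% in replicate 2. The share among retained tiles was 27.8% at up to 2 CpGs, 40.9% at 3, 36.4% at 4, 44.6% at 5 to 6, and 60% at 7 or more, the last from 27 of 45 tiles. Their mean level in CKO-Pat was 76.2% and 78.2% at up to 2 CpGs, against 89.3% and 89.7% at 7 or more. Among the other tiles the same means were 62.3% and 65.7%, against 70.4% and 71.9%. Depth and CpG number go together, and their parts were not separated.

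Neighbouring tiles were described in the same way; whether a neighbour is retained rests on the same WT-Pat libraries as the rule, while its CKO-Pat level does not. Sperm-methylated tiles that started 300 to 1000 bp from a retained tile were retained in 13 of 37 cases (35.1%), against 5.88% of the 340 found at that distance around other tiles. These 37 neighbours averaged 85.5% and 84.3% in CKO-Pat, against 67.9% and 70.01% for the 340. The means include neighbours that were themselves retained, which were not set apart. At 100 to 200 bp the retained shares were 40.0% and 5.98%, and neighbours that close can lie on the same sequenced fragment. At 1100 to 5000 bp the retained shares were 31.3% and 8.86%. Neighbours at that distance averaged 75.5% and 76.2% in CKO-Pat around retained tiles, against 67.6% and 69.9% around other tiles. Most of the 831 tiles stood alone all the same. Joined at distances under 500 bp they made 787 single tiles and 22 pairs.

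**Figure D4:**
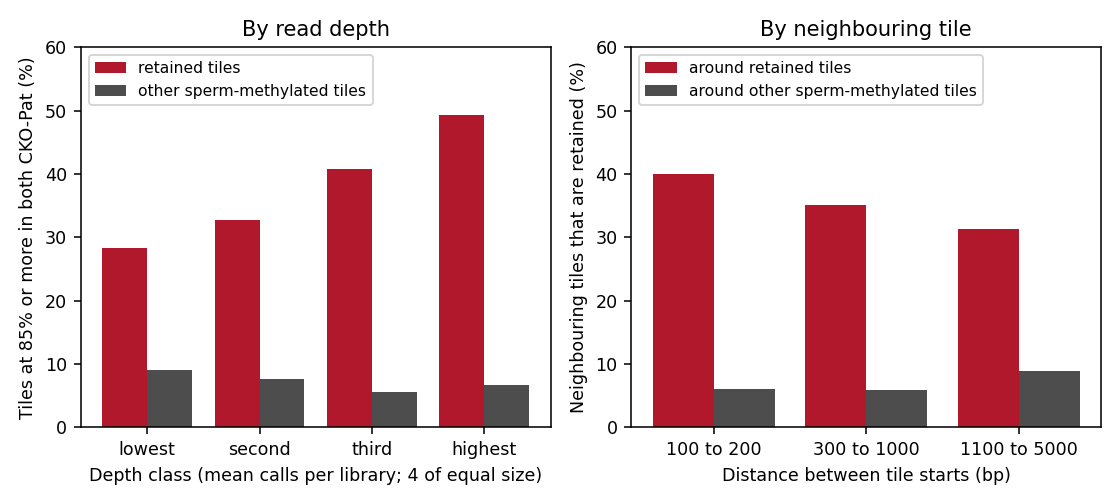
Left, share of retained (red) and other sperm-methylated tiles (grey) at 85% or more in both CKO-Pat libraries (%), by depth class in mean calls per library; the red bars run from 28.3% to 49.3% and the grey ones stay between 5.64% and 9.07%. Right, share of neighbouring sperm-methylated tiles that were themselves retained (%), by distance between tile starts in bp; around retained tiles it was 40.0%, 35.1% and 31.3%, against 5.98%, 5.88% and 8.86% around other tiles.

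Positions are given in the mm9 build, the one named in the submitters' processing notes. An mm9 genome or annotation was not used here, so the tiles carry no gene names and no sequence. The tiles below were chosen by rank on the values shown, which are a description.

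The 5 pairs given first were ranked on the lower CKO-Pat level of each tile, averaged over the pair, and the first was chr8:121823401-121823600. It was at 100% and 100% in CKO-Pat-Aphi, 98.1% and 96.2% in CKO-Pat, 100% and 92.3% in WT-Pat-Aphi, 100% and 99.7% in WT-Pat, and 96.1% and 97.3% in Sperm. Its Oocyte levels were 0% and 4.74%, with 11.5% and 0% in CKO-Mat and 0% and 4.20% in WT-Mat, so this region was high in each paternal library and low in oocytes and mock-treated maternal pronuclei. The next pair, chr5:144057901-144058200, was at 96.0% and 98.9% in CKO-Pat and at 87.6% and 83.3% in Oocyte. The pair at chr1:173411801-173412000 was at 97.7% and 94.6% in CKO-Pat and at 100% in both Oocyte libraries and in both CKO-Mat libraries. The pair at chr8:86611601-86611800 held 14 CpGs. It was at 98.6% and 95.5% in CKO-Pat, 96.2% and 96.4% in Oocyte, and 97.1% and 100% in CKO-Mat-Aphi. The pair at chr10:126997501-126997700 stood at 94.5% and 100% in CKO-Pat, and 1 WT-Pat-Aphi library was lower there, with 93.3% and 63.6%. These 5 pairs thus comprised 1 that was unmethylated in the oocyte and 4 that were methylated in both gametes.

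The tile chr4:139868601-139868700 shows retention at its clearest. All of its CpG positions were at 100% in CKO-Pat, 8 positions with 11 to 45 calls each in replicate 1 and 5 positions with 57 to 116 calls each in replicate 2. It was at 100% in the remaining paternal pronuclear libraries too, and at 96.4% and 97.2% in Sperm. In Oocyte it was at 0% and 6.80%, where 0 of 143 calls allows a level of up to 2.10%. This limit and those below cover counting error only and take calls as independent. A read can give several calls, and the positions here had 9 to 28 calls each, so limits counted in reads would be higher. The CKO-Mat libraries read 6.43% and 8.48% there and the WT-Mat libraries 3.51% and 0%, the last from 352 calls, which allow up to 0.852%. The tile chr1:183353901-183354000 was likewise at 100% in all 8 paternal pronuclear libraries and at 0% in both Oocyte libraries, with 18.02% and 0.719% in CKO-Mat. The tile chr7:135342101-135342200 had the same paternal and Oocyte levels, with 9.69% and 36.4% in CKO-Mat. The tile chr7:88273401-88273500 was at 100% in both CKO-Pat libraries and at 94.6% in WT-Pat replicate 2, and at 0% in both Oocyte libraries, where 114 and 108 calls allow up to 2.63% and 2.78%. It was at 19.05% in the 1 CKO-Mat-Aphi library that read it and at 15.1% and 61.7% in CKO-Mat. In all, 41 retained tiles low in the oocyte and 121 high in it were at 85% or more in the 6 paternal libraries outside the rule. Over all 20 libraries, 15 of the 336 retained tiles read in each were at 85% or more throughout.

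Some of the most deeply read retained tiles are given next. The most deeply read retained tile, chr7:89920501-89920600, had 2500 calls per library on average. It was at 92.7% and 97.1% in CKO-Pat-Aphi, 91.8% and 89.0% in CKO-Pat, 84.2% and 95.6% in WT-Pat-Aphi, 93.2% and 86.1% in WT-Pat and 87.9% and 83.6% in Sperm. The Sperm level includes positions that were hardly read in CKO-Pat, so the tile levels are not set against each other. The next, chr14:43986701-43986800, with 1461 calls, was at 86.7% and 87.0% in CKO-Pat, against 97.8% and 97.1% in Sperm, and at 21.5% and 15.4% in Oocyte. The fifth by depth, chr10:67874101-67874200, was at 26.7% and 78.7% in CKO-Pat, from 300 and 1299 calls, although it was at 99.8% and 96.7% in WT-Pat. Its CKO-Pat replicates thus lay far apart, and the lower one was the more thinly read. Its 12 positions had 5 to 35 calls each in replicate 1, against 71 to 127 in replicate 2.

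Some tiles kept in WT-Pat were empty in CKO-Pat. The tile chr5:38980301-38980400 was at 98.4% and 100% in CKO-Pat-Aphi and at 0% in both CKO-Pat libraries, with the zeros from 26 and 42 calls, which allow up to 11.5% and 7.14%. It was at 100% in both WT-Pat-Aphi libraries and 100% and 87.8% in WT-Pat, and at 0% in both Oocyte libraries. The calls come from 2 positions with 13 reads each in replicate 1 and 21 each in replicate 2. Limits counted in reads would be higher. A tile on chromosome 18 was also at 0% in both CKO-Pat libraries, from 30 and 56 calls, which allow up to 10% and 5.36%, and it was at 100% in both WT-Pat libraries. The tile chr11:68597101-68597200 was at 12.5% and 6.67% in CKO-Pat, from 80 and 30 calls, although it was at 100% in both Oocyte libraries. The 5 lowest retained tiles had 2 or 3 CpGs each, where the median of all retained tiles was 3. The 12 below 50% in both CKO-Pat libraries had a median depth of 93 calls, against 151 for all retained tiles.

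The tiles nearest the edge of the rule were as follows. Closest inside on the lower WT-Pat level were chr11:98216101-98216200 at 85.03%, with 100% and 94.4% in CKO-Pat, chr8:86194601-86194700 at 85.03%, with 68.2% and 29.4%, and chr5:23210501-23210600 at 85.03%, with 89.8% and 64.0%. Closest outside were chr4:140136301-140136400 at 84.96%, with 88.2% and 89.3% in CKO-Pat, chr15:49472001-49472100 at 84.93%, with 60.4% and 87.4%, and chr7:87717601-87717700 at 84.87%, with 81.3% and 68.5%. The CKO-Pat levels of the 3 tiles inside and the 3 outside overlapped.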

How the data were processed

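Reduced representation bisulfite libraries were read from 20 samples in 10 groups of 2, grouped by their labels. Trim Galore, Bismark 0.10.1 and the mm9 build are named in the submitters' processing notes. The authors deposited, per CpG position, raw counts of methylated and unmethylated calls, without normalisation, and a percent that equals 100 times methylated over all calls (largest difference 7.11e-14). Any read filter or duplicate removal is not given in the sources used here. Calls are not independent molecules, and a read can give several calls. Intervals and limits from calls are therefore tighter than the reads allow, and they leave out the spread between libraries. The p-values measure the spread between libraries, which may be technical. A group added to a tile's spread only where each of its libraries expected at least 5 calls of both kinds. Where a group was near 0% or 100%, the p-values thus rest on other groups and tiles.

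Calls were summed in tiles of 100 bp (5 reads per position, 2 positions, 10 calls). The members, lists and tests were chosen with earlier results of these data known. Tiles were named by rank, as given with them. Each of 61688 tiles was tested with a quasi-binomial model over the 8 paternal pronuclear libraries, its dispersion shrunk with limma 3.58.1 squeezeVar (R 4.3.3), an F test and Benjamini-Hochberg adjustment. The median dispersion was 58.1, so libraries of a group differed far more than counting of independent calls would give. The parts of dependent calls and of differences between the pools were not tested. The shrinkage left no weight on a tile's own spread: tiles of like depth share a pooled dispersion, on which each p and call rests. On simulated counts, with gains set only at tiles of low level, the model called few of the changed tiles. No change was simulated at tiles of high level, such as the retained ones. A call count of 0 therefore does not show that tiles did not differ. Tables were made with Python 3.11.15 and pandas 2.3.3. Alternatives were other limits, depths, tile sizes and models, and each library left out.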

Additional observations from a re-analysis of the deposited data

How the results depend on the processing

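Of the recomputed values, 34 moved and 87 stayed. Staying meant within 1.5 times (counts), within 1 SD of the replicates (level) or within a 95% interval (share). That interval takes tiles as independent, which they are not, so it serves only to sort the shares. Many of the values that stayed were call counts of 0 against 0. These say little, because the model called few of the changed tiles on simulated counts, where the changed tiles were of low level. With 30 calls per tile, the mean CKO-Pat level of retained tiles was 83.6% and the share at 85% or more in both CKO-Pat libraries 40.7%. Limited to tiles at 25% or less in both Oocyte libraries, the 293 tiles stood at 76.5% and 24.9%. Leaving out a library gave 837 to 2661 tiles, levels of 71.8% to 82.7% and shares of 17.4% to 61.9%. Leaving out a Sperm or WT-Pat library drops both its level limit and its coverage requirement, so more tiles enter. Without WT-Pat replicate 1 there were 2507 tiles at 76.3%, with a share of 27.1%; without WT-Pat replicate 2 there were 2661 at 71.8%, with 17.4%. Without CKO-Pat replicate 1 the share, then in a single library, was 61.9%, and without replicate 2 it was 52.2%.

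Calls depended on the model. For CKO-Pat-Aphi against CKO-Pat, 0 tiles higher and 0 lower became 388 and 45 with limma, and 6 higher with Sperm in the fit. For CKO-Pat-Aphi against WT-Pat-Aphi, 0 and 0 became 27 and 16 with limma. For CKO-Pat against WT-Pat, 18 and 1 became 148 and 61 with limma, and a floor set before shrinkage left 0 lower. Leave-one-out counts, in the same order of comparisons, were 0 to 3 higher and 0 to 0 lower, 0 to 2 and 0 to 0, and 4 to 18 and 0 to 1. The calls of 3 and 2 tiles came without CKO-Pat-Aphi replicate 2. For CKO-Pat against WT-Pat, leaving out WT-Pat replicate 2 gave 4 higher, CKO-Pat replicate 1 gave 11 and replicate 2 gave 9, and the 1 lower call was lost without WT-Pat replicate 1 or either CKO-Pat library. The cause was not tested.

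The labels do not say what replicate numbers mean, and they were not taken to pair libraries. The correlation of replicate differences across tiles ran from -0.00331 to 0.0389 over the pairs of paternal groups, although replicate 1 of both CKO paternal groups stood together at oocyte-specific tiles. A fit with replicate number as a block called 59 higher and 3 lower, 18 and 23, and 25 and 7 in the 3 comparisons.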
